A study of Mus musculus with 21 samples.

Results

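Small nucleolar RNAs and Cajal body RNAs were followed through translating ribosome affinity purification (TRAP) of the embryonic mouse forebrain and kidney. The members were the rows of the deposited expression tables that carried noncoding (NR) RefSeq accessions alone and a symbol beginning with Snord, Snora or Scarna and a number. This rule took 130 of the 23827 rows, namely 84 C/D box rows (Snord), 37 H/ACA box rows (Snora) and 9 Cajal body rows (Scarna). The rows stood for 117 symbols, because some of them were copies of one gene. The rule uses no measured value.

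C/D box RNAs guide 2′-O-methylation and H/ACA box RNAs guide pseudouridylation, chiefly of ribosomal RNA in the nucleolus, whereas Cajal body RNAs guide the same modifications on spliceosomal RNAs. Most vertebrate members are cut out of introns of host genes, many of which encode ribosomal proteins, and are then bound by a fixed set of core proteins. They are not templates for translation, and the mature forms carry no poly(A) tail.

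There were 21 libraries in 7 groups of 3, taken at E14.5. Brain transcriptome, brain translatome, kidney transcriptome and kidney translatome came from Sox2Cre+/-;Gt(ROSA)26Sor-mCherry-Rpl10a+/- embryos, in which Sox2Cre switches on the ribosomal protein Rpl10a, fused to mCherry, in the embryo at large. The brain EC translatome and kidney EC translatome came from Cdh5CreERT2+/-;Gt(ROSA)26Sor-mCherry-Rpl10a+/- embryos (tagged endothelial cells, with a tamoxifen-dependent Cre). Per the paper, tamoxifen was given by oral gavage ahead of the harvest of embryos. The brain Emx1 translatome came from Emx1Cre+/-;Gt(ROSA)26Sor-mCherry-Rpl10a+/- embryos (tagged dorsal telencephalic lineage). Every group thus carried the tagged allele, which the CAGGS promoter drives once Cre has removed the stop cassette. Transcriptome denotes total RNA of the organ extract and translatome denotes RNA bound to tagged ribosomes. Levels and shares below are those of reads on the rows, not amounts of the mature RNAs. How well the libraries captured short RNAs without a poly(A) tail was not tested. Whether such reads came from the mature RNA or from longer transcripts of the host gene was not tested. Tissue was pooled within a library, and no untagged control library was analysed here.

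Each library held between 21760652 and 79231692 counted reads. Member rows took 1871 to 2250 reads in the brain transcriptome, 2365 to 3842 in the kidney transcriptome and 136 to 403 in a TRAP library, so that most rows rested on few reads. The summed level of 5 forebrain markers was 626 to 654 RPKM (reads scaled to row length and depth) in the brain transcriptome and 0.139 to 0.382 RPKM in the kidney transcriptome. The summed level of 5 endothelial markers was 2203 to 2350 RPKM in the brain EC translatome against 112 to 133 RPKM in the brain translatome. Forebrain markers still summed to 139 to 172 RPKM in the brain EC translatome, against 669 to 697 RPKM in the brain translatome. Likewise, 5 kidney markers summed to 64.0 to 84.8 RPKM in the kidney EC translatome, against 373 to 405 RPKM in the kidney translatome. The part of RNA from other cells in the EC libraries was not tested. The 4 nuclear long RNAs Malat1, Neat1, Meg3 and Miat summed to 554 to 591 RPKM in the brain transcriptome and to 8.42 to 9.68 RPKM in the brain translatome. The embryonic red blood cell list summed to 185 to 428 RPKM in the brain transcriptome and 98.4 to 192 RPKM in the brain translatome (2 of 4 rows tested were called lower), with Hba-a1 at 0 in every library. In the kidney the nuclear RNAs summed to 122 to 140 RPKM in the transcriptome and 9.78 to 11.3 RPKM in the translatome, and the red blood cell list to 351 to 664 against 91.8 to 173 RPKM (3 of 4 rows called lower). The part of these cells and of nuclear RNA in the changes below was not tested. In bulk RNA, fewer cells of a type and less RNA per cell cannot be told apart.

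The sequences that tell the classes apart, and the rows on which the comparisons turned, are shown first. They are the GENCODE vM21 transcripts on GRCm38, 5′ to 3′. In C/D rows the capitals mark the first C box (TGATGA), where these letters occurred, and the last D box (CTGA). Snord52, Snord96a and Snord22 nearly vanished from the translatomes, whereas Snord104 and Snord91a did not.
Snord52: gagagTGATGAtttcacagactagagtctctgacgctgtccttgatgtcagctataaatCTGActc
Snord96a: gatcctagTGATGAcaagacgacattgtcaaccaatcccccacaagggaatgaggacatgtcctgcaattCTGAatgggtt
Snord22: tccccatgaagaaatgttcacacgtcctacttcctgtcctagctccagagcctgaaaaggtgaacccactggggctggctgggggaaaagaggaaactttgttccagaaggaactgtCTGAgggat
Snord104: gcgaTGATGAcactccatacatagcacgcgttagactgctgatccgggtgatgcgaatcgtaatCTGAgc
Snord91a: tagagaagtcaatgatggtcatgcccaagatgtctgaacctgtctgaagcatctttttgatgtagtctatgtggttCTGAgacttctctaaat

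For H/ACA rows the capitals mark the ACA that lies 3 bases before the 3′ end. Snora65 and Snora64 were among the highest H/ACA rows and fell with TRAP, Snora7a fell least among those called, and Snora30 kept its reads in the kidney.
Snora65: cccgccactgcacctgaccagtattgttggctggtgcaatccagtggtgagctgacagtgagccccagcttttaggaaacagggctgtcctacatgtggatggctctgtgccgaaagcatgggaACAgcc
Snora64: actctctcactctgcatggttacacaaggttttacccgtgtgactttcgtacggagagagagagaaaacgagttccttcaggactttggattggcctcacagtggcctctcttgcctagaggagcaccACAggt
Snora7a: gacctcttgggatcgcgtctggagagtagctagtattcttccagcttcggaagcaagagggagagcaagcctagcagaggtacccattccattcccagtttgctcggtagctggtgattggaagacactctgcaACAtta
Snora30: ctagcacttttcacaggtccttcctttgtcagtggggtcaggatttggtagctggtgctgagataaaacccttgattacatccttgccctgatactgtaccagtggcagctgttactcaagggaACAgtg

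Snord52 lies at chr17:34950952-34951017 (- strand), Snord96a at chr11:48802032-48802112 (+), Snord22 at chr19:8725866-8725991 (+), Snord104 at chr11:106500993-106501062 (+) and Snord91a at chr11:74905424-74905516 (+). Snora65 lies at chr2:32963291-32963420 (+), Snora64 at chr17:24720772-24720905 (+), Snora7a at chr6:115807975-115808114 (- strand) and Snora30 at chr7:127527874-127528003 (+).

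GENCODE held a sequence for 119 of the 130 rows, with a median length of 78 nt in C/D rows and 132 nt in H/ACA rows. On the strand of the row, TGATGA together with CTGA was present in 49 of 73 C/D rows and in 0 of 37 H/ACA rows. In windows of 78 bases before gene starts, taken from the RefSeq promoter set, the pair was present in 0.810%. The ACA was at its place in 31 of 37 H/ACA rows and 0 of 73 C/D rows, against 1.66% of windows of 132 bases. The H box letters ANANNA were present in 37 of 37 H/ACA rows, but also in 62 of 73 C/D rows and in 77.6% of windows. The pair was thus missing from 24 C/D rows and the ACA from 6 H/ACA rows, and CTGA alone was present in 20 of 37 H/ACA rows. Of the 9 Cajal body rows, 5 held both TGATGA and CTGA and 2 held the ACA. These matches are descriptions of letters, not of sites.

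Reads on both classes made up a far smaller share of the brain translatome than of the brain transcriptome libraries. C/D rows summed to 24.2, 22.3 and 22.01 CPM (reads scaled to all counted reads of a library) in the brain transcriptome libraries and to 4.70, 4.03 and 4.14 CPM in the brain translatome libraries. H/ACA rows summed to 18.5, 16.8 and 16.3 against 0.874, 0.687 and 0.744 CPM. In neither class did the libraries of the groups overlap. The C/D sum kept 18.8% ± 1.57 (SD, n = 3) of its transcriptome level and the H/ACA sum kept 4.47% ± 0.556 (SD, n = 3). In these and later shares each translatome library is set against the mean of the transcriptome libraries. The SD therefore covers the translatome libraries alone. The Cajal body rows together had 26, 32 and 23 reads in the transcriptome libraries and 0, 0 and 1 in the translatome libraries.

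Most of the gap between the class sums lay in 2 C/D rows. Snord104 and Snord91a together held 340 of the 551 member reads of the brain translatome (61.7%), but 386 of the 6113 member reads of the brain transcriptome (6.31%). Without them, C/D rows kept 5.70% ± 0.818 (SD, n = 3), a difference from H/ACA rows of about the spread of both. This sum was chosen after the reads of both rows were seen, and no H/ACA row was taken out in return.

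The kidney sums also dropped, from a higher starting level. C/D rows summed to 43.2, 37.3 and 41.7 CPM in the kidney transcriptome libraries and to 5.20, 4.54 and 4.83 in the kidney translatome libraries, that is 11.9% ± 0.810 (SD, n = 3). H/ACA rows summed to 31.1, 29.6 and 33.0 against 2.68, 2.40 and 2.25 CPM, that is 7.83% ± 0.701 (SD, n = 3). The C/D share lay below that of the brain (18.8%) and the H/ACA share above it (4.47%), each by more than the SDs. These differences between the organs were not tested, and the SDs leave out the spread of the transcriptome libraries. Without Snord104 and Snord91a the C/D share was 6.65% ± 1.25 (SD, n = 3), against 5.70% ± 0.818 in the brain, a difference smaller than the larger SD. The order of the classes in the kidney then turned round, also with a difference smaller than the larger SD. The Cajal body rows had 32, 23 and 22 reads in the kidney transcriptome libraries and 2 in every kidney translatome library.

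**Figure D1:**
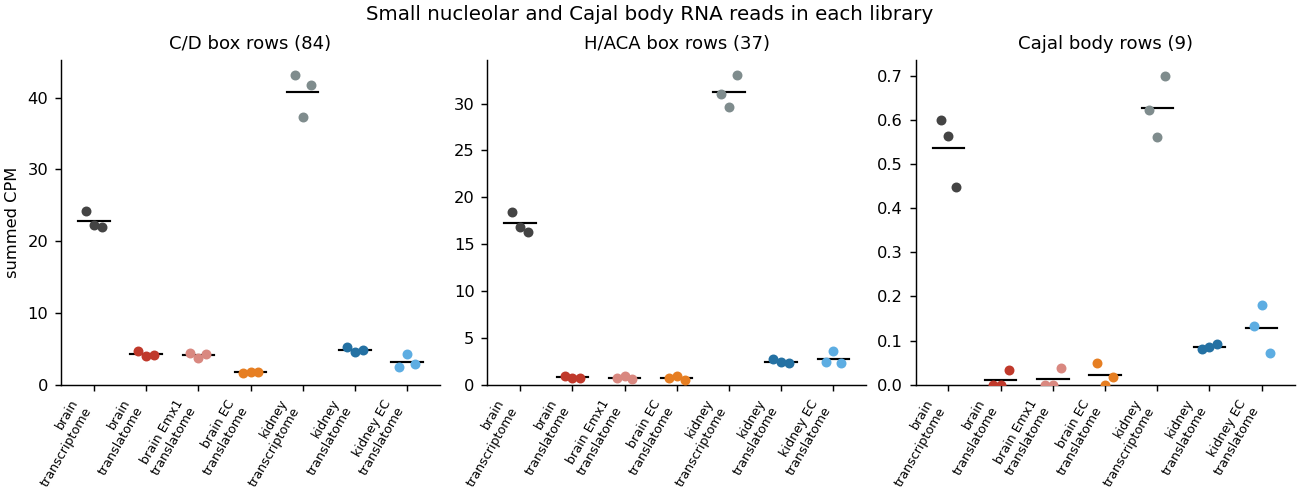
Summed CPM (vertical axes, each starting at 0) of C/D, H/ACA and Cajal body rows in each of the 21 libraries, by group. Points are libraries and bars are means of 3. C/D rows lie at 22.01 to 24.2 in the brain transcriptome and at 4.03 to 4.70 in the brain translatome, and H/ACA rows drop from 16.3 to 18.5 down to 0.687 to 0.874.

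Row by row, edgeR's quasi-likelihood test was fitted on all rows with at least 1 read, and a row was called at an adjusted p under 0.001. The fit did not pair the libraries, although transcriptome and translatome libraries of one number share a tissue sample. In the brain, 102 of the 130 member rows had a read and were tested. Of these, 43 were called lower in the translatome (24 of 63 C/D, 18 of 31 H/ACA and 1 of 8 Cajal body rows), where 18.5% of the 19446 rows tested were called lower. At an adjusted p under 0.05, 71 were lower, against 28.1% of all rows (27.7% were higher). In 78 of the 102 rows every translatome library lay below every transcriptome library in CPM, where 31.9% of all rows did. The count called higher was 0, also at an unadjusted p under 0.05 and with DESeq2, where 18.6% of all rows were called higher. DESeq2 gave no adjusted p for 25 of the 102 rows. The median log2 fold change was -4.25 over C/D rows, -4.27 over H/ACA rows and -3.63 over Cajal body rows, against -0.01 over all rows tested. For 46 of the 102 rows no read at all was left in the brain translatome, and the fitted change of such rows depends on the prior count. With these rows set to a lower bound of 3 reads over the group, the medians were -2.83 for C/D and -3.68 for H/ACA rows. Many tested rows had reads in the transcriptome alone, so that their direction was fixed by the filter and the medians are descriptions.

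Of the 37 member rows with a mean of at least 10 reads over the 6 brain libraries, 31 were called lower (17 of 22 C/D and 14 of 15 H/ACA rows), whereas 12 of the 65 rows under that mean were. Of all 15374 rows with such a mean, 23.1% were called lower. The mean includes the translatome reads, so that the change itself sets part of it. In the kidney, 101 rows were tested and 44 were called lower (26 of 62 C/D and 18 of 31 H/ACA rows), where 15.8% of the 19336 rows tested were called lower. Without any 1 of the 3 kidney translatome libraries, 17 C/D rows were called. None of the 8 Cajal body rows tested was called in the kidney by edgeR or DESeq2, although 3 had an unadjusted p under 0.05, and DESeq2 gave no adjusted p for 6 of them (21 of all 101 rows). At an adjusted p under 0.05, 71 were lower, against 26.1% of all rows (24.3% were higher), and in 82 rows the groups did not overlap, against 29.6% of all rows. No member row was called higher in the kidney by either tool, where 14.9% of all rows were, and 0 had an unadjusted p under 0.05 in that direction. Of 45 kidney rows with a mean of at least 10 reads, 39 were called lower (21 of 26 C/D and 18 of 19 H/ACA rows), against 19.9% of all 15231 such rows. The median log2 fold change was -4.03 over C/D rows and -4.07 over H/ACA rows, against -0.03 over all rows tested, and with rows at 0 set to their bound it was -2.84 and -3.80. The brain and kidney tests shared no library, and 38 of the 99 member rows tested in both were called lower in both, where 11.4% of all 18674 such rows were. These 38 are 88.4% of the brain calls and 86.4% of the kidney calls of members. Over all rows, the calls shared by both organs were 59.3% of the brain calls and 69.99% of the kidney calls.

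**Figure D2:**
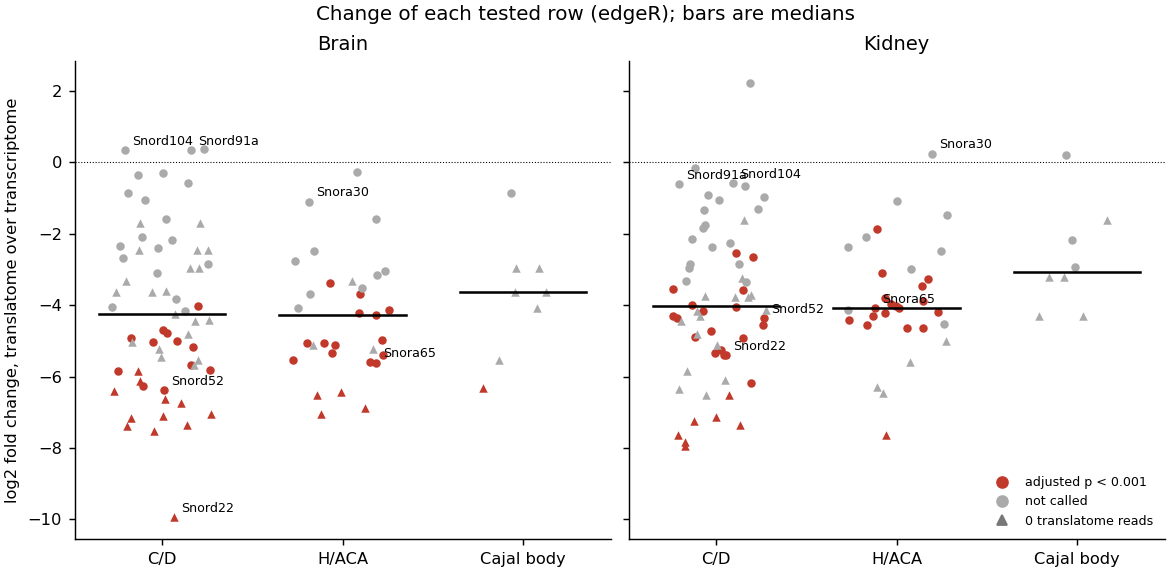
Log2 fold change of translatome over transcriptome (vertical axis) for each tested row of the 3 classes in brain and kidney, fitted with edgeR. Red marks an adjusted p under 0.001, grey a row not called, triangles rows with 0 translatome reads, whose fitted value is no measured size, and bars the class medians, which are -4.25 for C/D and -4.27 for H/ACA rows in the brain. Snord104 and Snord91a sit at 0.33 and 0.34 in the brain and at -0.59 and -0.61 in the kidney.

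Snord52, the row that marks this family here, fell in both organs. It had 45, 61 and 50 reads in the brain transcriptome libraries and 1, 0 and 0 in the brain translatome libraries. Its log2 fold change was -6.38 ± 0.51 (SE) with an edgeR adjusted p of 9.96e-08. Its kidney reads were 86, 67 and 69 reads against 2, 3 and 1, with a log2 fold change of -4.36 ± 0.36 (SE) and an edgeR adjusted p of 3.14e-06. The share kept was 0.905% in the brain (95% exact interval 0.0228 to 5.11%) and 4.76% in the kidney (1.73 to 10.5%). These intervals cover counting error only. Snord52 lies within 1110038B12Rik, a noncoding host gene, in a retained intron of a transcript outside the GENCODE basic set.

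Snord22 was the most frequently read C/D row of both transcriptomes. It lies in an exon of Snhg1, a noncoding host gene of several C/D RNAs. It had 111, 170 and 154 reads in the brain transcriptome libraries and 0 in each brain translatome library, which makes it at least 103-fold lower against a floor of 3 reads over the group (edgeR adjusted p = 5.91e-09). Its kidney reads fell from 365, 222 and 191 reads to 2, 2 and 6 (log2 fold change -5.41 ± 0.31 (SE), edgeR adjusted p = 3.00e-07). All 6 translatome libraries lay below all 6 transcriptome libraries in CPM.

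Snord96a, in the gene of the ribosome-bound scaffold protein Rack1, had the highest length-scaled level of the C/D rows in the brain transcriptome at 28.03 ± 1.41 RPKM (SD, n = 3). It went from 95, 115 and 114 reads to 3, 3 and 2 (log2 fold change -4.77 ± 0.28 (SE), edgeR adjusted p = 4.52e-09). Kidney reads went from 166, 124 and 108 to 4, 5 and 5 (-3.99 ± 0.23 (SE), adjusted p = 3.35e-07). Further named C/D rows, namely Snord12 (host Zfas1), Snord2 (host Eif4a2), Snord47 (host Gas5) and, in the kidney, Snord35a (host Rpl13a), had log2 fold changes between -6.25 and -5.24. These 4 rows had at most 2 reads over the 3 brain translatome libraries and at most 4 over the 3 kidney translatome libraries.

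Among H/ACA rows, Snora65 was the highest per length. Its host is Rpl12, a gene of the large ribosomal subunit. It had 103, 109 and 87 reads in the brain transcriptome libraries and 2, 1 and 1 in the brain translatome libraries (log2 fold change -5.61 ± 0.35 (SE), edgeR adjusted p = 8.43e-09). Kidney reads were 205, 196 and 143 against 3, 7 and 8 (-4.09 ± 0.27 (SE), adjusted p = 7.74e-07). Snora64 (host Rps2) kept somewhat more in the brain, with 49, 65 and 74 reads against 6, 2 and 2, that is 7.51% (95% exact interval 3.54 to 14.1%). Snora43, Snora61 (host Snhg12), Snora68 and Snora70 (host Rpl10) were called lower in both organs as well, with log2 fold changes between -5.60 and -3.28. Snora52 (host Rplp2) had 8 brain translatome reads in all, and its drop of -3.38 was the smallest of the called brain rows.

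Scarna13, in an intron of Snhg10, was the one Cajal body row with a mean of at least 10 reads in a transcriptome. It had 9, 15 and 11 reads in the brain transcriptome libraries and 0 in each brain translatome library, at least 8.27-fold lower against the floor of 3 reads (edgeR adjusted p = 0.00024). The call was lost without brain translatome replicate 1 (adjusted p = 0.00181). In the kidney it had 13, 8 and 9 reads against 0, 0 and 2 and was not called (adjusted p = 0.0148). The remaining Cajal body rows had at most 20 reads over the 3 libraries of either transcriptome, and Scarna3b had 0 reads in all 21 libraries.

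Snord104 did not follow the family. It had 68, 124 and 81 reads in the brain transcriptome libraries and 118, 60 and 63 in the brain translatome libraries. Scaled to depth, the means were 1.78 and 2.19 CPM, and the groups overlapped. Its log2 fold change in the brain was 0.33 ± 0.18 (SE, edgeR adjusted p = 0.146). In the kidney it went from 165, 133 and 110 reads to 57, 60 and 39, without overlap in CPM, and kept 67.4% (95% exact interval 55.7 to 81.3%). That change of -0.59 ± 0.17 (SE) missed the threshold (edgeR adjusted p = 0.0130), but passed it with samples paired by number (adjusted p = 0.000226). GENCODE places no host gene around Snord104, whereas RefSeq places it inside Gm36220, a long noncoding RNA gene of 297 bases at chr11:106500915-106501211. Whether reads of such a transcript entered the row was not tested.

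Snord91a had 37, 47 and 29 reads in the brain transcriptome libraries and 38, 26 and 35 in the brain translatome libraries (log2 fold change 0.34 ± 0.24 (SE), edgeR adjusted p = 0.258). In the kidney it had 17, 8 and 8 reads against 4, 2 and 6 (-0.61 ± 0.51 (SE), adjusted p = 0.359). The groups overlapped in both organs. Snord91a lies in an intron of Tsr1, a ribosome maturation factor, and also between the ends of Srr, the serine racemase gene, which overlaps Tsr1. Tsr1 was lower in the brain transcriptome than in the kidney transcriptome (log2 fold change -0.68 ± 0.05 (SE), adjusted p = 3.36e-07), while Srr was higher (1.00 ± 0.07 (SE), adjusted p = 1.40e-07) and so was Snord91a. With TRAP, Srr had log2 fold changes of 0.24 ± 0.07 in the brain and 0.38 ± 0.07 in the kidney (SE, edgeR adjusted p = 0.00639 and 0.000732). Those of Tsr1 were 0.21 ± 0.06 and -0.03 ± 0.05 (SE, edgeR adjusted p = 0.00989 and 0.697). Whether reads of either gene entered the row was not tested.

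Further rows that were not called, or were called in 1 organ, are given by their values. Snord55 had 13, 18 and 12 reads against 8, 9 and 6 in the brain (log2 fold change -0.37, adjusted p = 0.435) and 31, 24 and 10 against 14, 2 and 7 in the kidney. Snord49a, Snord49b and Snord65 share the host 2410006H16Rik. Snord49a had 21, 32 and 34 reads against 7, 10 and 3 in the brain (-1.58, adjusted p = 0.00236, and 0.000867 with paired samples). In the kidney it was called lower, with 49, 36 and 26 reads against 2, 2 and 1 (-3.58, adjusted p = 2.05e-05). Snord65 had 17, 13 and 20 reads against 11, 2 and 4 in the brain, with overlap (-1.06, adjusted p = 0.0637). Its kidney reads were 42, 26 and 17 against 3, 1 and 4 (-2.53, adjusted p = 0.000831), a call that was lost with DESeq2 (0.00185), with the filter on low counts (0.00113) and in each fit that left out a library (0.00113 to 0.00446). Snord49b had 10, 8 and 10 reads against 7, 5 and 1 in the brain, with overlap (-0.59, adjusted p = 0.370). In the kidney it had 47, 19 and 16 against 4, 5 and 1, without overlap (-2.15, adjusted p = 0.00458, and 2.00e-05 with paired samples). Snord15b was called lower in the brain. That call was lost with DESeq2 (adjusted p = 0.00739) and in each fit that left out a library (0.00158 to 0.0037). In the kidney Snord15b had 26, 12 and 19 reads against 3, 1 and 0, without overlap (-2.95, adjusted p = 0.00385, and 2.99e-05 with paired samples). Snora23, in an intron of Ipo7, had 36, 17 and 9 kidney reads against 4, 2 and 6, without overlap in CPM (-1.48, adjusted p = 0.0359). Snora7a overlaps an exon of a coding Rpl32 transcript. It had 15, 12 and 29 reads against 7, 4 and 2 in the brain (-1.58, adjusted p = 0.0139) and was called in the kidney, where it kept 27.02% (58, 45 and 34 reads against 8, 9 and 4). That kidney call was lost without kidney transcriptome replicate 1 (adjusted p = 0.00138) or 2 (0.00104) and without kidney translatome replicate 1 (0.00139) or 3 (0.00137). Snora30, in an intron of Srcap, is given for its kidney translatome reads, although its mean was under 10. It had 10, 7 and 4 reads in the kidney transcriptome and 5, 5 and 4 in the kidney translatome (0.24 ± 0.46 (SE), adjusted p = 0.73). Snord4a, in an intron of Rpl23a, had 8, 14 and 18 reads against 2, 0 and 1 in the brain (-3.09, adjusted p = 0.00117, and 0.000862 with paired samples), and 28, 14 and 21 reads against 6, 6 and 7 in the kidney (-0.91, adjusted p = 0.0729). An exon of Tlcd1 lies on the other strand at this row.

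**Figure D3:**
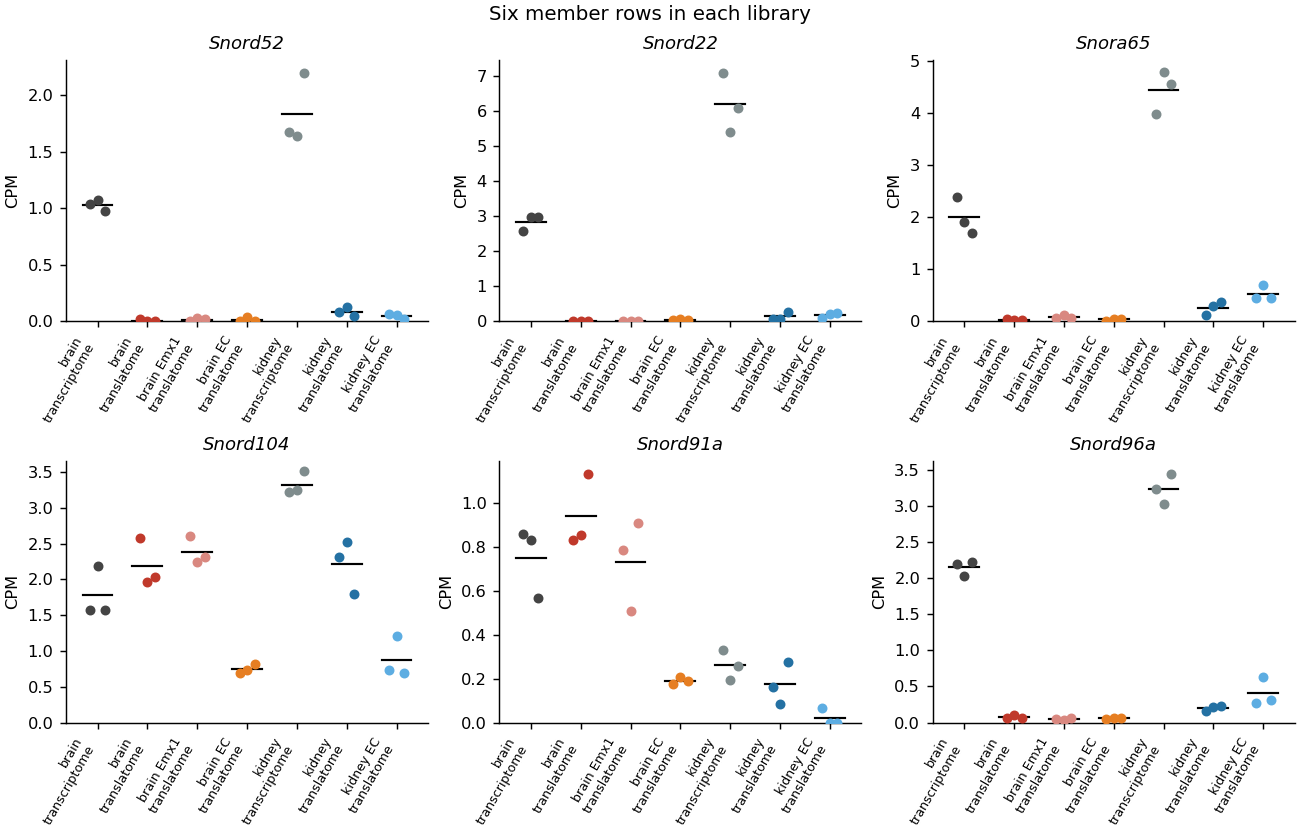
CPM (vertical axes, each starting at 0) of Snord52, Snord22, Snora65, Snord104, Snord91a and Snord96a in each library of the 7 groups. Points are libraries and bars are means of 3. Snord22 has 0 reads in the brain translatome, whereas Snord104 has means of 1.78 and 2.19 in brain transcriptome and translatome.

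Whether a change with TRAP differed between kidney and brain was tested as an interaction in 1 fit of both organs. Of 104 member rows tested, 0 were called at an adjusted p under 0.001 by edgeR or DESeq2, where 4.12% of the 20108 rows were called in the direction of a higher kidney change and 2.35% in the other. DESeq2 gave no adjusted p for 99 of these rows, and 9 had an unadjusted p under 0.05. At an adjusted p under 0.05 there were 3 (Snord104, Snord49a and Snord22), where 12.6% of all rows had a higher and 10.5% a lower kidney change.

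Most members had a lower fitted level in the brain than in the kidney transcriptome, but few were called. Of 103 member rows tested between the transcriptomes, 4 were called lower in the brain (Snord22, Snora65, Snord16a and Snora44) and 1 was called higher (Snord91a), while 26.3% of the 19841 rows tested were called lower and 27.2% higher. Below an adjusted p of 0.05 the counts were 39 lower and 1 higher, with 34.9% of all rows lower and 35% higher at that threshold. The median log2 fold change over the members was -0.69, against -0.02 over all rows, and 85 of 103 rows had a lower fitted level in the brain. In 54 rows all brain libraries lay below all kidney libraries in CPM, where 43.6% of all rows did. Scaling by total counts shifted the median of all rows by -0.18.

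Snord22 had a log2 fold change of -0.94 ± 0.14 (SE) and Snora65 one of -0.97 ± 0.16 (SE), with edgeR adjusted p of 8.42e-05 and 0.000197. For Snord22 the brain mean was 2.85 CPM and the kidney mean 6.21 CPM, without overlap. The Snora65 call was lost without brain transcriptome replicate 2 (adjusted p = 0.00108) or 3 (0.00112). Snord16a (host Rpl4) had 16, 21 and 23 brain reads and 54, 39 and 32 kidney reads, and Snora44 (an exon of Snhg12) had 13, 16 and 11 against 36, 33 and 24. Their log2 fold changes were -1.16 ± 0.23 (SE) and -1.32 ± 0.26 (SE), with adjusted p of 0.000788 and 0.000932. Both calls were lost with DESeq2 (adjusted p = 0.00386 and 0.00551) and in each fit that left out a library. Snord91a was higher in the brain (1.67 ± 0.31 (SE), adjusted p = 0.000553), a call that was lost without brain transcriptome replicate 1 (adjusted p = 0.00296) or 2 (0.00313), without kidney transcriptome replicate 2 (0.00249) or 3 (0.00169), and with scaling by total counts (0.00116). Organ and sequencing run were not crossed evenly, so that these differences could not be taken within a run.

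The cell type TRAP libraries were set against the whole-organ transcriptome of Sox2Cre embryos, as no group held total RNA of the tagged cells. Cell type, embryo, TRAP and, in the EC groups, tamoxifen cannot be told apart in these shares. The brain Emx1 translatome stood at 18.1% ± 1.51 of the C/D and 4.24% ± 1.11 of the H/ACA level of the brain transcriptome (SD, n = 3). Without Snord104 and Snord91a its C/D level stood at 5.02% ± 0.119. The brain EC translatome stood at 7.37% ± 0.504 of the C/D level and 4.11% ± 1.05 of the H/ACA level. Without both rows its C/D level stood at 3.69% ± 0.225, against 5.70% ± 0.818 in the brain translatome. The kidney EC translatome stood at 7.81% ± 2.42 of the kidney C/D level, 6.15% ± 2.00 without both rows and 8.85% ± 2.18 of the H/ACA level. Its libraries varied more, with C/D sums of 2.44, 4.302 and 2.81 CPM. Each of these groups formed sequencing runs of its own, so that cell type and run cannot be told apart.

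**Figure D4:**
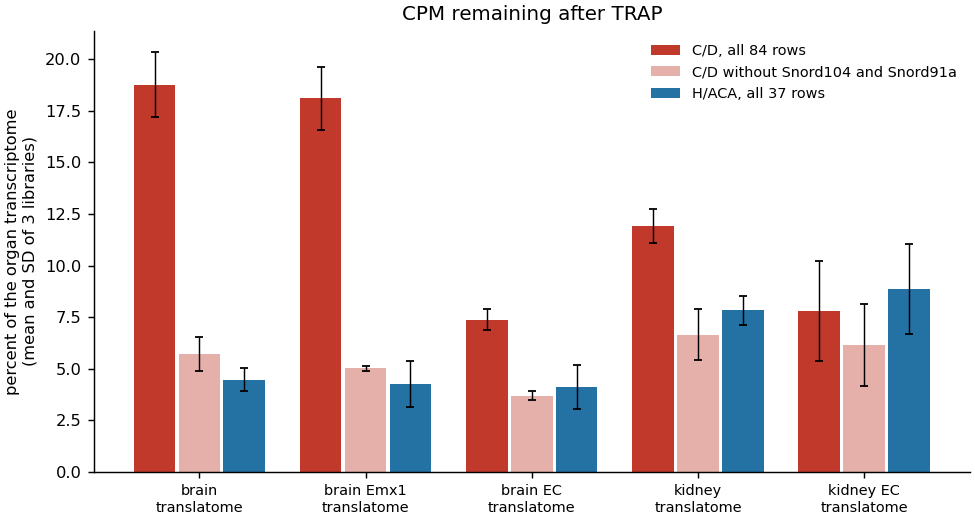
Summed CPM of C/D and H/ACA rows in the 5 translatome groups as percent of the mean of the organ's transcriptome (vertical axis from 0; bars are means and error bars SDs of 3 libraries). C/D rows keep 18.8% in the brain translatome and 5.70% without Snord104 and Snord91a, while H/ACA rows keep 4.47%.

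Of 72 member rows tested between the brain EC translatome and the brain translatome, 2 were called lower, namely Snord91a and Snord104, where 21.4% of the 19103 rows tested were called lower and 24.8% higher. Snord91a had 11 reads in each brain EC library, 0.191 CPM on average against 0.939 in the brain translatome (log2 fold change -1.98 ± 0.29 (SE), edgeR adjusted p = 5.15e-05). Snord104 had 43, 39 and 47 reads, 0.743 against 2.19 CPM (-1.27 ± 0.20 (SE), adjusted p = 8.35e-05). The Snord104 call was lost without brain translatome replicate 1 (adjusted p = 0.00139). Srr was lower in the same comparison (-0.90 ± 0.08 (SE), adjusted p = 4.36e-07), and Tsr1 had a log2 fold change of 0.19 ± 0.08 (SE, adjusted p = 0.0412). The count called higher was 0 with edgeR and with DESeq2, and 3 rows had an unadjusted p under 0.05 in that direction. At an adjusted p under 0.05 the counts were 3 lower and 2 higher, with 31% and 32.6% of all rows. Over all rows, 53.7% of the calls were higher, and 36.1% with scaling by total counts, which shifted the median by -0.30. DESeq2 gave no adjusted p for 54 of the 72 rows.

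Between the brain Emx1 translatome and the brain translatome, 0 of 70 member rows were called by edgeR or DESeq2, with 1 at an unadjusted p under 0.05 and no DESeq2 adjusted p for 62 of them, where 12.8% of the 19006 rows tested were called lower and 9.2% higher. Snord104 had 206, 71 and 122 reads and Snord91a had 62, 16 and 48 reads in the brain Emx1 libraries, and Snord22 had 0 in each. Between the kidney EC translatome and the kidney translatome, 0 of 91 member rows were called by edgeR or DESeq2, with 6 at an unadjusted p under 0.05 and no DESeq2 adjusted p for 75 of them, where 15% of the 18940 rows tested were called lower and 16.7% higher. Snord104 had 33, 40 and 29 reads in the kidney EC libraries (log2 fold change -0.98 ± 0.28 (SE), adjusted p = 0.0103) and Snora65 had 20, 23 and 19 (1.38 ± 0.46 (SE), adjusted p = 0.0241). At an adjusted p under 0.05, 1 row was lower and 3 were higher, with 27.9% and 27.6% of all rows. Scaling by total counts moved the share of higher calls over all rows from 41.7% to 29.9% for Emx1, and from 52.7% to 21.7% for kidney EC with a shift of the median by -0.37. In each of the comparisons between TRAP groups, 3 or fewer member rows reached a mean of 10 reads.

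The host genes gave a measure from the same libraries that the rule did not use. A host row was found for 91 members tested in the brain, and these belonged to 68 host genes. Of the hosts, 23 were called higher and 17 lower in the brain translatome, with a median log2 fold change of 0.10 and a range of -1.63 to 1.204. In the kidney 14 of 68 hosts were called higher and 25 lower, with a median of -0.17. Over all rows, 18.6% were called higher and 18.5% lower in the brain, and 14.9% and 15.8% in the kidney. Snhg1, around Snord22, was called higher in the brain translatome (0.80, edgeR adjusted p = 1.08e-06) and in the kidney translatome (0.90, adjusted p = 1.04e-06). Rpl13a, around Snord35a, was higher in the brain translatome by a log2 fold change of 0.79 (adjusted p = 4.29e-07). Hosts of other depleted members were called lower. In the kidney translatome these included Eif4a2, around Snord2 (-0.99, adjusted p = 1.71e-07), and Gas5, around Snord47 (-0.88, adjusted p = 1.02e-06). Neither was called in the brain. Rpl12, around Snora65, was called lower in the brain (-1.63, adjusted p = 4.16e-06) and in the kidney (-2.08, adjusted p = 4.15e-07). Ribosomal protein genes have near-identical copies that may share reads, so that host values such as that of Rpl12 (4.43 RPKM in the brain transcriptome) are uncertain, which was not tested.

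**Figure D5:**
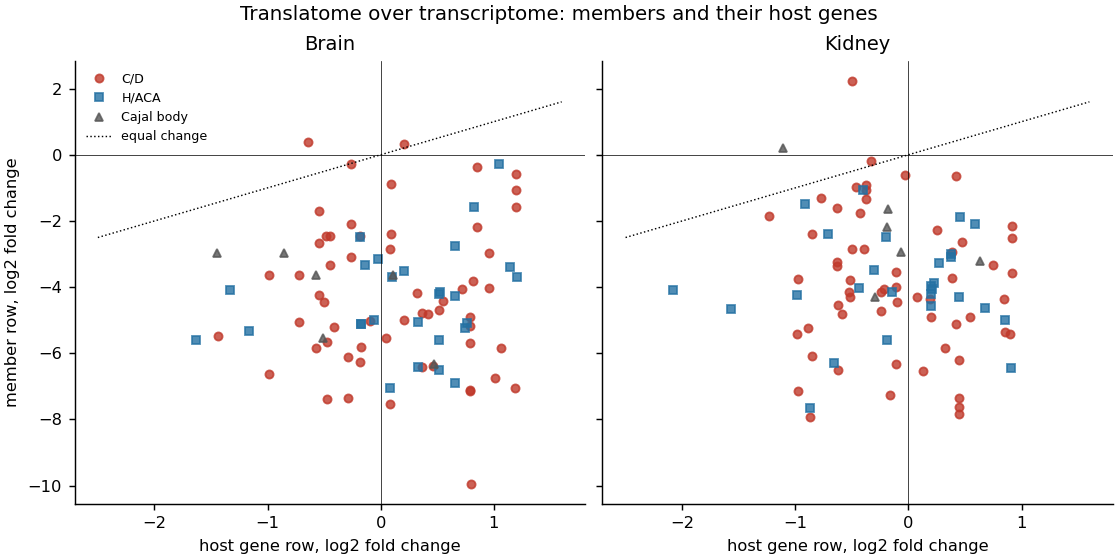
Log2 fold change of translatome over transcriptome of each member row with a host row (vertical axis) against that of its host gene (horizontal axis), in brain and kidney. The dotted line marks equal change. Hosts range from -1.63 to 1.204 in the brain.

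By place in the host, the 40 tested brain rows inside exons of transcripts outside the GENCODE basic set (mostly retained introns) summed to 20.3 ± 2.01 CPM in the transcriptome and 0.678 ± 0.172 in the translatome (SD, n = 3), and 25 of them were called lower. The 6 rows in basic exons went from 4.81 ± 0.257 to 0.145 ± 0.0258, and 4 of them were called lower. The 48 intronic rows, with Snord91a among them, went from 11.2 ± 0.765 to 1.99 ± 0.0349, and 12 of them were called lower, where 18.5% of all rows were. Members of one host share transcripts and are not independent of each other.

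The mRNAs of the proteins of these particles were measured in the same libraries. The counts below stand beside 18.6% of all rows called higher and 18.5% lower in the brain translatome, 14.9% and 15.8% in the kidney translatome, and 26.3% lower in the brain than in the kidney transcriptome. Of 8 core protein genes with a row, 4 were called higher in the brain translatome and 2 lower. Nop10 (log2 fold change 1.49, edgeR adjusted p = 5.72e-09) and Nhp2 (1.22, adjusted p = 1.49e-08) of the H/ACA core, Gar1 (0.79, adjusted p = 1.89e-06) of the same core and Nhp2l1 (1.04, adjusted p = 2.88e-07) of the C/D core were higher. Nop56 and Nop58, which bind C/D RNAs, were lower (-0.99 and -0.45, adjusted p = 9.11e-08 and 3.83e-05). In the kidney 3 were called higher and 2 lower. The C/D methyltransferase gene Fbl (0.50 in the brain, adjusted p = 0.0195) and the pseudouridine synthase gene Dkc1 (adjusted p = 0.971) were not called. All 8 were called lower in the brain transcriptome than in the kidney transcriptome, with a median log2 fold change of -0.85 against -0.02 over all rows. Dkc1 (-1.19, adjusted p = 2.54e-10) and Gar1 (-1.20, adjusted p = 8.17e-08) were the lowest.

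Of 9 assembly factor genes, 3 were called higher and 0 lower in the brain translatome, and 1 was called higher and 4 lower in the kidney translatome. Znhit3 was higher in both (0.81 and 0.64, edgeR adjusted p = 2.29e-06 and 4.34e-05). Of 6 genes of Cajal body and modification partners, 2 were called higher (Phax and Smn1) and 2 lower (Nolc1 and Tgs1) in the brain translatome, and 1 was called lower in the kidney translatome (Nolc1). Of 12 rows of Snhg genes and Gas5, 4 were called higher and 2 lower in the brain translatome, and 1 higher and 3 lower in the kidney translatome.

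Short structured RNAs whose symbols the rule did not take were sparsely read. The rule goes by symbol, so these rows, Rnu73b among them, may include small nucleolar RNAs under other names. Of 24 symbols looked for, 13 had a row, and 5 of these were tested in the brain and 6 in the kidney. Rnu73b had 29 reads over the brain transcriptome libraries and 1 over the brain translatome libraries (adjusted p = 0.00111), and 63 against 0 in the kidney, where it was called lower (edgeR adjusted p = 0.000184). Rmrp, the RNA of RNase MRP, had 11 against 2 reads in the brain and 26 against 3 in the kidney, and Terc, the telomerase RNA that carries an H/ACA domain, had 25 against 8 and 30 against 11. Neither was called.

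Of the 130 rows, 25 had no read in any of the 21 libraries, among them 9 rows of the Snord116 cluster, 2 of Snora19 and the rows Snord14a, Snord14c and Snord14d. A further 9 rows had 1 to 9 reads in all libraries together. Copies under one accession, such as those of Snord116 and Snora19, are uncertain, since reads from near-identical sequences may be split or lost.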

How the data were processed

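The authors mapped reads from TruSeq RNA v2 libraries, a kit that does not mark strand, to GRCm38 (mm10) with RUM and summed them over UCSC RefSeq genes with the rpkmforgenes script. Each deposited table gives raw read counts per row and, per the file headers, RPKM values made by the authors. RPKM was used for levels between genes, and counts for tests.

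The members and lists were chosen with earlier results of these data known. Tests used edgeR 4.0.16 quasi-likelihood (TMM, rows with at least 1 read, Benjamini-Hochberg over all rows), with DESeq2 1.42.0 as an alternative. In simulated brain data, 99 of 100 genes changed 4-fold and 100 of 100 changed 16-fold were recovered with 0 false calls among 18919 unchanged genes. The changed genes were drawn from rows with a mean of at least 10 reads, and all rows were given the same dispersion. This recovery therefore does not cover the 65 of 102 tested brain members under that mean. CPM refers to all counted reads, with exact (Clopper-Pearson) 95% intervals and a floor of 3 reads. Rows named were Snord52, per organ and class the 5 with the highest transcriptome RPKM (at least 10 reads in every library) and the 3 with most translatome CPM, per organ the 5 with the largest bound or fold drop, Cajal body rows with a mean of at least 10 transcriptome reads, and up to 5 rows a direction called higher with TRAP, in the interaction, or between organs or TRAP groups. Snord49a, Snord49b, Snord65, Snord15b, Snora23, rows without reads and genes that are no members were named after their values were seen, from lists or as hosts.

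Supplementary sample information of the study gives brain or kidney libraries of one number the same tissue sample. Deviations from group means correlated at 0.48 to 0.64 within brain pairs and 0.68 to 0.72 within kidney pairs, over 14117 rows. Other groups share only a number. The replicates of a group were separate pools of tissue. GENCODE vM21 and RefSeq (GRCm38.p6) gave positions and sequences. RefSeq positions were found for 120 rows and GENCODE sequences for 119. Alternatives were other size factors, total counts, a filter on low counts, a replicate block, all 21 samples, DESeq2, a threshold of 0.05 and leaving out each library. Sequencing runs, per the supplementary information, did not cross the groups evenly.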

Additional observations from a re-analysis of the deposited data

Results flagged for a closer look

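The change with TRAP differed between kidney and brain at an adjusted p under 0.05, though not under 0.001, for 3 members in edgeR's interaction test. At that looser threshold 12.6% of the 20108 rows tested had a higher kidney change and 10.5% a lower one. Snord104 had a difference (kidney minus brain) of -0.90 ± 0.25 (SE, adjusted p = 0.0173) and fitted changes of 0.33 in the brain and -0.59 in the kidney. Snord49a differed by -2.00 ± 0.64 (SE, adjusted p = 0.0321), with 20 translatome reads left in the brain and 5 in the kidney. Snord22 differed by 4.42 ± 1.21 (SE, adjusted p = 0.0171), a size that depends on the prior count because its 3 brain translatome libraries held 0 reads. In the kidney translatome it kept 2.27% (95% exact interval 1.08 to 4.19%), and in the brain 0 reads allowed up to 1.202%.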

How the results depend on the processing

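At an adjusted p under 0.05 in place of 0.001, 71 members were lower in the brain translatome (41 C/D and 28 H/ACA rows) and 71 in the kidney translatome (41 and 28), 39 were lower in the brain than in the kidney transcriptome, 2 were higher in the brain EC translatome, 1 was lower and 3 were higher in the kidney EC translatome, and the interaction gave 2 lower and 1 higher. In the brain the count called lower stayed between 37 and 48 under other size factors, total counts, a filter of at least 10 counts in 3 samples, the replicate block, all 21 samples or DESeq2, and between 33 and 43 when 1 library was left out. In the kidney it stayed between 40 and 57, and between 32 and 38 when 1 library was left out, where C/D rows alone gave 17 to 21. The replicate block gave 47 in the brain and 57 in the kidney, and it added the calls of Snord104, Snord15b and Snord49b in the kidney and of Snord49a, Snord4a and Snora23 in the brain. Among the named values it changed no other call, apart from the losses of Snord16a and Snora44 between the transcriptomes.

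Between the transcriptomes 8 rows were lower with total counts, 2 with the replicate block, 2 with DESeq2 and 2 in every fit with 1 library left out, and 0 were higher with total counts and 0 to 1 with 1 library left out. There the numbers do not pair the samples (correlations of 0.499, -0.0913 and 0.266). Calls lower in the brain EC translatome numbered 1 to 2 with 1 library left out, and 1 row was lower in the kidney EC translatome with all 21 samples. The Snora44 call in the brain was lost without brain translatome replicate 1 (adjusted p = 0.00127). The causes were not tested.

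Without Snord104 and Snord91a, an alternative chosen after seeing the data, the C/D share was 5.70% in the brain, 5.02% in the brain Emx1, 3.69% in the brain EC and 6.65% in the kidney translatome. Over rows with a mean of at least 10 transcriptome reads, the H/ACA share was 3.74% in the brain and 7.11% in the kidney. Of the values of named rows under the alternatives, 837 kept their side of the threshold, 47 lost and 18 gained a call, and 0 changed sign with a call. Cajal body rows and the cell type comparisons rested on few reads.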
